A study of Mus musculus with 8 samples.

Results

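The C/EBP transcription factors were followed across 8 expression arrays of mouse embryonic fibroblasts. The genes were chosen by name: Cebpa, Cebpb, Cebpd, Cebpg and Ddit3. All 5 of the 5 listed genes were on the array, each with 1 probe set that carries a single gene symbol, among 8251 genes named that way. The probe sets are 98447_at (Cebpa), 92925_at (Cebpb), 160894_at (Cebpd), 92195_at (Cebpg) and 101429_at (Ddit3), and whether their probes cross-hybridise within the family was not tested. All 5 stood at or above a log2 value of 5 on all 8 arrays, so all 5 were among the 5195 genes tested. Every value below is a log2 GCRMA expression value, in which 1 unit is a doubling of signal, or a difference of such values. Because each probe set binds with its own strength, levels are compared between arrays for 1 probe set and never between genes.

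The cells were spontaneously immortalised fibroblast lines, 1 with Stat3 (STAT3+/+, here Stat3 WT) and 1 that lacks it (STAT3-/-, here Stat3 KO). Both lines were studied untreated and after oncostatin M (OSM), an interleukin-6 family cytokine that acts through the gp130 receptor chain, at 20 ng/ml for 30 minutes, and all cells grew in medium with 10% heat-inactivated serum and 2 mM glutamine. Treatment was taken from the sample titles, because the descriptions name OSM for untreated samples too. The 4 groups hold 2 arrays each, with title numbers 02 and 03, and this number of arrays limits the precision of every value. Each genotype is represented by a single line, so a comparison of genotypes is also a comparison of lines, and loss of Stat3 and any other difference of the lines cannot be told apart. The labels do not state that the 2 arrays of a group hold RNA of different cultures. The p-values therefore rest on array-to-array spread that may be technical.

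C/EBP proteins are basic leucine zipper factors that bind DNA as dimers, with each other and with related factors of the AP-1 and ATF families. Cebpb and Cebpd are early genes of cytokine and acute-phase responses and act at the start of fat cell differentiation. Cebpa is tied to growth arrest and to the mature adipocyte, liver and myeloid programmes. Cebpg lacks a strong activation domain and dimerises with other members and with Atf4. Ddit3, also called CHOP, is induced by stress of the endoplasmic reticulum and lack of amino acids, and it can hold other C/EBP proteins off their usual sites.

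Stat3 separated the lines on both of its probe sets. The 4 Stat3 KO arrays read 7.81 to 9.17 on the first, against 10.11 to 11.94 on the Stat3 WT arrays. On the second, 3 Stat3 KO arrays read 2.76 to 2.94 and Stat3 KO OSM replicate 3 read 7.30, against 9.80 to 12.57 on the Stat3 WT arrays. The labels do not place the deletion relative to the probes, so the signal left in Stat3 KO cells does not check them. Arrays of 1 title number resembled each other more (correlations of 0.9325 to 0.977) than both arrays of 1 group did (0.8694 to 0.9258), and 2775 of 6756 probe sets (41.1%) passed the test between the numbers. Stat3 KO OSM replicate 2 lay at -19.43 on the first principal component, apart from the other 02 arrays at -54.69 to -48.05. Differences are therefore given within each number too. Of 14 fibroblast markers on the array, 11 to 12 reached a log2 value of 5 on each array, with Col1a1 at 14.98 to 15.87, while Vim (3.45 to 3.70) and Thy1 (2.22 to 2.42) did not. Of 8 leukocyte markers 2 reached it, Cd14 (9.34 to 11.62) and Csf1r (8.80 to 10.20), and the pan-leukocyte gene Ptprc lay at 3.24 to 4.34.

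The DNA ahead of the genes is shown for Cebpb and Ddit3, a pair whose differences with OSM ran in opposite directions in both lines. RefSeq (GRCm38.p6) promoter windows of 300 bases were available for 4 of the 5 members. No window was available for Cebpd, so its DNA was not searched for any motif. Printed are the 250 bases before the start site, 5′ to 3′ on the plus strand, with motif matches in capitals. In Cebpb, on chromosome 2, chr2:167688665-167688914, the capitals mark 3 copies of TGACG, the core of a cAMP response element, 1 of them on the minus strand. In Ddit3, on chromosome 10, chr10:127290543-127290792, they mark CCAAT on the minus strand.
Cebpb: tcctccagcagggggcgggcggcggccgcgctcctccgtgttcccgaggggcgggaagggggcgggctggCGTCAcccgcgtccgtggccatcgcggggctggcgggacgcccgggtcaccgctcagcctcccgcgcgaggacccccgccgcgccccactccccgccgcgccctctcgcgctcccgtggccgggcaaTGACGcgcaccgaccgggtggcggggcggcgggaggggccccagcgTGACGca
Ddit3: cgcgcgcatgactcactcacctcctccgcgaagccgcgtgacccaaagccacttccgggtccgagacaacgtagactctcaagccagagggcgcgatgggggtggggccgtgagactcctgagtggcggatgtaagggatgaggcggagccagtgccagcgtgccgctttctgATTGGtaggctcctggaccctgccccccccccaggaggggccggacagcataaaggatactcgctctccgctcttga

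Counted from the start site, the TGACG matches of Cebpb lie at -180 to -176, -53 to -49 and -7 to -3. This motif was added to the search after the sequence had been seen, and 20.8% of all 32851 promoter windows of this length hold it on either strand. The CCAAT match of Ddit3 lies at -77 to -73. Cebpg, a gene on the minus strand of its chromosome, has a pair of CCAAT matches at -89 to -85 and -28 to -24, on the strand opposite to the gene, and 37.4% of all windows hold this motif. Also searched on both strands were TTCNNNGAA, a STAT-type palindrome present in 8.3% of all windows, its stricter form TTCCNGGAA (1.15%), the full cAMP response element TGACGTCA (1.79%), the C/EBP palindrome TTGCGCAA (0.183%) and the C/EBP-ATF composite TGATGCAAT (0.192%). TTCCNGGAA is contained in TTCNNNGAA, and TGACGTCA contains TGACG. Of TTCNNNGAA, TTCCNGGAA, TGACGTCA, TTGCGCAA and TGATGCAAT none is in the windows of Cebpa, Cebpb, Cebpg or Ddit3, and the Cebpa window holds neither TGACG nor CCAAT. The Cebpb window is 80.7% G and C, a share that 0.825% of all windows reach.

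**Figure D1:**
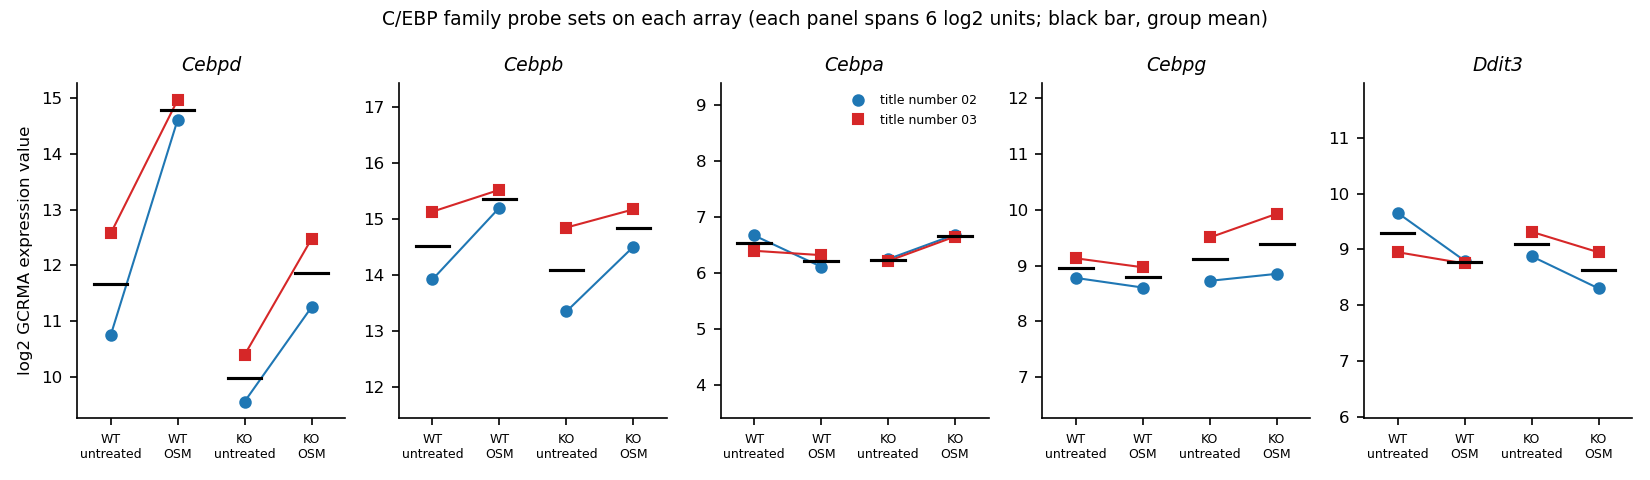
Log2 GCRMA expression value (y axis, each panel spanning 6 log2 units) of the 5 C/EBP genes on each of the 8 arrays; circles are title number 02, squares 03, lines join untreated and OSM arrays of 1 line and number, and black bars are group means of 2 arrays. Cebpd read 14.61 and 14.96 in Stat3 WT cells with OSM against 12.57 or less on all other arrays, while Cebpa stayed between 6.11 and 6.68.

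Cebpd spanned the widest range of the 5 genes. Over the 8 arrays it ran from 9.56 to 14.96, a spread (SD) larger than that of 97.3% of the probe sets tested. The same percentile was 73.5 for Cebpb, 44.6 for Cebpg, 37.3 for Ddit3 and 11.1 for Cebpa. In the fit over all probe sets (limma, Benjamini-Hochberg adjustment) none of the 5 genes passed an adjusted p of 0.05 in any of the 5 comparisons. Calls were rare for any gene: limma called 0% of the 6756 probe sets for OSM in Stat3 WT cells, 0% for OSM in Stat3 KO cells, 0% between the untreated lines, 0% for the interaction (the OSM difference in Stat3 KO minus that in Stat3 WT) and 0.0148% between the lines with OSM. With the title number as a replicate block the shares were 0.0148%, 0.0296%, 0%, 0% and 0.104% in the same order, and no C/EBP gene was among them. Named after their values were seen, the call without the block was Cx3cl1, 7.01 higher in Stat3 KO than in Stat3 WT cells with OSM. With the block the calls were Hk2 for OSM in both lines (3.39 in the WT line and 3.08 in the KO line), Ereg for OSM in Stat3 KO cells (6.85), and 7 between the lines with OSM. Of these, Cx3cl1 (7.01), Notch1 (4.75), Postn (3.61) and Irf1 (2.64) were higher in Stat3 KO cells, and Selp (-5.81), Myo5b (-3.82) and Stat3 itself (-2.94) were lower. At an unadjusted p under 0.05, limma returned 126, 138, 151, 29 and 243 probe sets, and 485, 746, 653, 248 and 814 with the block. Cebpd was the 1 C/EBP gene among them without the block, for OSM in either line and between the lines with OSM. With the block Cebpd was added between the untreated lines and Cebpb for OSM in Stat3 WT cells.

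Cebpd was higher on every OSM array than on the untreated array of its line and number. It read 10.75 and 12.57 (02, then 03) in Stat3 WT cells without OSM and 14.61 and 14.96 with OSM. In Stat3 KO cells it read 9.56 and 10.40 untreated and 11.25 and 12.48 with OSM. Untreated and OSM arrays did not overlap within either line, and the OSM arrays of Stat3 WT cells stood above all 6 others. The group means were 11.66 ± 1.29 and 14.79 ± 0.25 in Stat3 WT cells and 9.98 ± 0.59 and 11.87 ± 0.86 in Stat3 KO cells (n = 2, SD). By mean the order was Stat3 WT with OSM, Stat3 KO with OSM, untreated Stat3 WT and untreated Stat3 KO. The groups in the middle of that order overlapped and differed by 0.20, and its other neighbours did not overlap. With 2 arrays a group, a lack of overlap is weak evidence of a difference. The share of all probe sets without overlap is not given, for Cebpd or for any gene below.

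With OSM, Cebpd was 3.12 ± 0.71 log2 units (limma SE) higher in the Stat3 WT line, or 8.71-fold, with a 95% interval of 1.39 to 4.86. The difference was 3.86 within number 02 and 2.39 within 03. In such bulk RNA, more RNA per cell and more cells that hold the transcript cannot be told apart. The difference was the 16th largest by size among 6756 probe sets, of which 0.237% differed by as much or more. The limma adjusted p was 1 (unadjusted 0.00444), and 0.144 with the replicate block (unadjusted 0.000171). Leaving out 1 array gave 2.21 to 4.03. In Stat3 KO cells Cebpd was 1.88 ± 0.71 higher, or 3.69-fold, with an interval of 0.15 to 3.62, and 1.69 and 2.08 within the numbers. That difference was the 98th largest there, with 1.45% of probe sets differing by as much. The limma adjusted p was 1 (unadjusted 0.0377), and 0.325 with the block (unadjusted 0.00225).

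The log2 difference of Cebpd in Stat3 KO cells was 60.3% of that in Stat3 WT cells. The interaction was -1.24 ± 1.01 (95% interval -3.69 to 1.21), -2.17 within number 02 and -0.31 within 03. Without untreated Stat3 WT replicate 2 it was -0.33, and without untreated replicate 3 it was -2.15 (-0.73 and -1.75 with the block). It missed the threshold by limma (adjusted p 1, unadjusted 0.264) and with the block (0.913, unadjusted 0.0518). The 95% interval holds an OSM difference that is equal in both lines as well as one that is smaller in Stat3 KO cells.

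Between the lines, Cebpd was lower in Stat3 KO cells at both numbers in either condition. Untreated it differed by -1.68 ± 0.71 (interval of the Stat3 KO minus Stat3 WT difference -3.42 to 0.05, within-number differences -1.19 and -2.17), or 3.21-fold, with a limma adjusted p of 1 and 0.39 with the block. Under the block the interval was -2.57 to -0.80. Without untreated Stat3 WT replicate 2 this difference was -2.59, and without untreated Stat3 WT replicate 3 it was -0.77. With the block these values were -2.19 and -1.17. The untreated groups did not overlap (9.56 and 10.40 against 10.75 and 12.57). With OSM it differed by -2.92 ± 0.71 (-4.66 to -1.19, within-number differences -3.36 and -2.49), or 7.58-fold, and again without overlap. Its adjusted p was 0.81, and 0.0906 with the block. Leaving out Stat3 KO OSM replicate 2, the array apart on the principal component, gave -2.31, and leaving out replicate 3 gave -3.53, with -2.81 and -3.03 under the block.

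**Figure D2:**
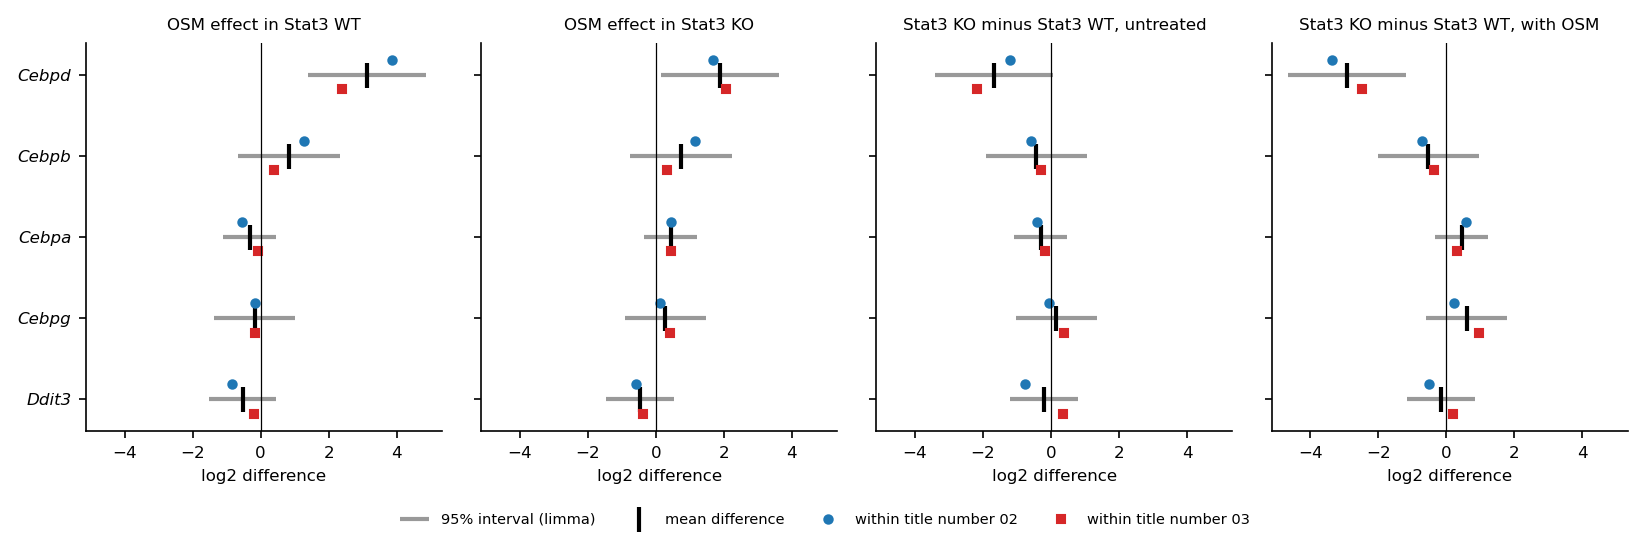
Log2 difference (x axis) of each C/EBP gene for OSM in either line and for Stat3 KO minus Stat3 WT without and with OSM; black ticks are mean differences over 2 arrays a group, grey bars 95% limma intervals, circles and squares the differences within title numbers 02 and 03. In the fit shown, without the replicate block, only intervals of Cebpd leave out 0, for OSM in both lines and between the lines with OSM. With the block (not drawn), those of Cebpd between the untreated lines and of Cebpb for OSM in Stat3 WT cells leave it out too.

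Cebpb, the other early member, differed less. It read 13.92 and 15.13 in Stat3 WT cells without OSM and 15.20 and 15.52 with OSM, and 13.34 and 14.85 in Stat3 KO cells without OSM and 14.50 and 15.17 with OSM. Within each number the OSM array was the higher one in both lines, but in Stat3 KO cells the groups overlapped, and in Stat3 WT cells the untreated 03 array lay just under the OSM array of 02. Group means were 14.52 ± 0.86, 15.36 ± 0.23, 14.10 ± 1.06 and 14.84 ± 0.47 (SD of 2 arrays) in that order. By mean, Stat3 WT with OSM stood above Stat3 KO with OSM without overlap, while the latter, untreated Stat3 WT and untreated Stat3 KO overlapped with their neighbours.

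The OSM difference of Cebpb was 0.84 ± 0.61 in Stat3 WT cells (interval -0.65 to 2.33, 1.29 and 0.39 within the numbers) and 0.74 ± 0.61 in Stat3 KO cells (-0.75 to 2.23, 1.16 and 0.32). Without untreated Stat3 WT replicate 2 the difference in Stat3 WT cells was 0.23, and without untreated replicate 3 it was 1.44. With the block these values were 0.65 and 1.03. Over all arrays the differences of both lines are 1.79-fold and 1.67-fold, and 7.73% and 13.4% of probe sets differed by as much. Both limma adjusted p-values were 1, and with the block they were 0.604 (unadjusted 0.033) and 0.453 (unadjusted 0.0501). Under the block the intervals were 0.10 to 1.58 in Stat3 WT cells and -0.0003 to 1.48 in Stat3 KO cells. The interaction was -0.10 ± 0.87 (-2.20 to 2.01), with -0.13 and -0.07 within the numbers. That interval does not show that both lines acted alike. Between the lines Cebpb differed by -0.43 ± 0.61 untreated and -0.53 ± 0.61 with OSM, and the sign was negative within both numbers each time. Without the block, the OSM difference in Stat3 KO cells was -0.0099 without untreated Stat3 KO replicate 2 and 1.49 without untreated replicate 3. It was 1.08 and 0.41 without OSM replicate 2 or 3. With the block these values were 0.36, 1.13, 0.57 and 0.91 in the same order.

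For Cebpb the difference between the title numbers was as large as that with OSM. The 03 arrays read 0.93 higher on average for Cebpb and 1.06 higher for Cebpd, but 0.64 for Cebpg, 0.08 for Ddit3 and -0.03 for Cebpa. By group, the difference for Cebpb was 1.21 in untreated and 0.32 in OSM-treated Stat3 WT cells, and 1.50 and 0.67 in Stat3 KO cells. For both Cebpb and Cebpd in Stat3 WT cells the numbers lay closest with OSM, at 0.32 and 0.35. What the number stands for is not stated, and its part in these values was not tested. Once the mean of each number was subtracted, Cebpb and Cebpd correlated at r = 0.8927 over the 8 arrays (0.8294 before), a description over arrays that share their treatment groups.

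**Figure D3:**
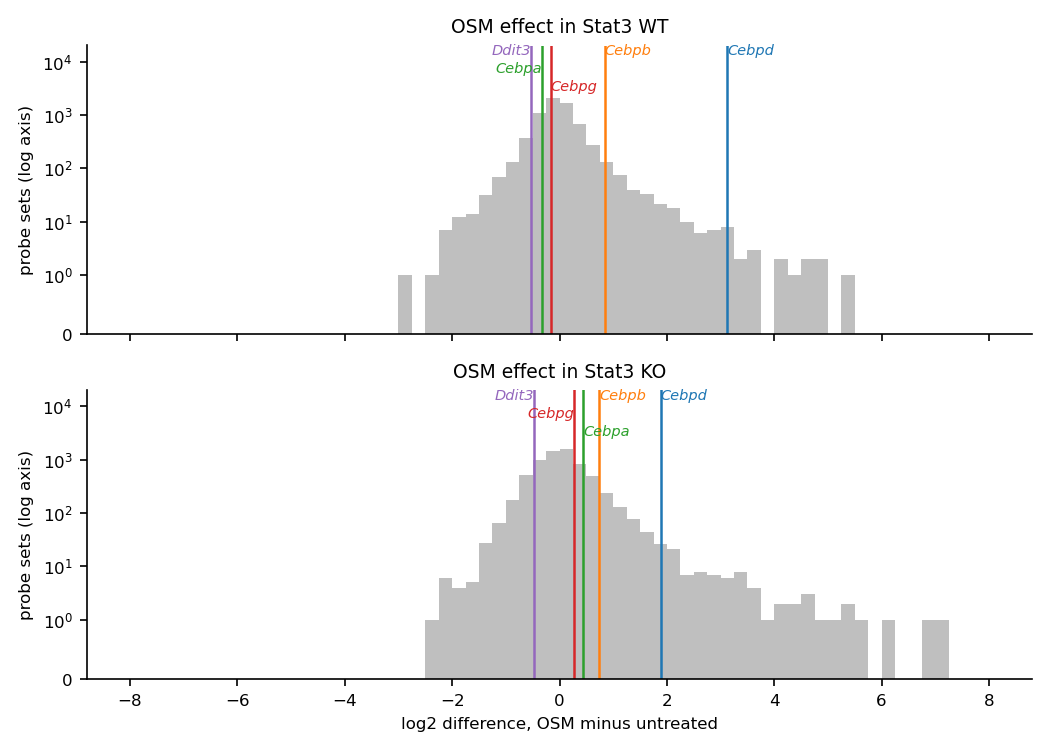
Number of probe sets (y axis, log scale) by log2 difference, OSM minus untreated, over the 6756 probe sets tested, in Stat3 WT cells (top) and Stat3 KO cells (bottom); coloured lines mark the C/EBP genes. Cebpd lies in the upper tail at 3.12 and 1.88, and the other 4 genes lie between -0.53 and 0.84.

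Cebpa varied least of the 5 genes. In Stat3 WT cells it read 6.67 and 6.39 untreated and 6.11 and 6.32 with OSM, and in Stat3 KO cells 6.25 and 6.21 untreated and 6.68 and 6.65 with OSM. The OSM arrays were the lower ones in Stat3 WT cells and the higher ones in Stat3 KO cells, without overlap in either line. In Stat3 WT cells the gap was narrow (6.39 against 6.32). No share of all probe sets without overlap stands beside this. The means were 6.53 ± 0.19 and 6.21 ± 0.15 in Stat3 WT cells and 6.23 ± 0.02 and 6.67 ± 0.02 in Stat3 KO cells, untreated and with OSM (SD of 2 arrays). In order, Stat3 KO with OSM overlapped untreated Stat3 WT, and both stood above untreated Stat3 KO and Stat3 WT with OSM, which overlapped. The OSM differences were -0.32 ± 0.32 (interval -1.10 to 0.47) and 0.44 ± 0.32 (-0.35 to 1.22). Their interaction was 0.76 ± 0.46 (-0.35 to 1.87), with 1.0 and 0.52 within the numbers and a limma adjusted p of 1. Of all probe sets, 15.5% had an interaction of that size. Between the lines Cebpa differed by -0.30 ± 0.32 untreated and 0.45 ± 0.32 with OSM.

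Cebpg, the partner without a strong activation domain, read 8.78 and 9.13 in Stat3 WT cells without OSM and 8.61 and 8.97 with OSM, and 8.73 and 9.50 in Stat3 KO cells without OSM and 8.85 and 9.93 with OSM. By mean the order was Stat3 KO with OSM (9.39 ± 0.76), Stat3 KO untreated (9.12 ± 0.55), Stat3 WT untreated (8.95 ± 0.25) and Stat3 WT with OSM (8.79 ± 0.26, SD of 2 arrays), and all neighbours overlapped. The OSM difference was -0.17 ± 0.49 in Stat3 WT cells (interval -1.36 to 1.02) and 0.27 ± 0.49 in Stat3 KO cells (-0.92 to 1.47). It was negative within both numbers in the first and positive within both in the second, with an interaction of 0.44 ± 0.69 (-1.24 to 2.13). An interaction at least that large was found for 37% of all probe sets. Between the lines Cebpg differed by 0.16 ± 0.49 untreated, where the sign turned between the numbers (-0.05 and 0.37), and by 0.60 ± 0.49 with OSM (0.25 and 0.96).

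Ddit3 was lower on the OSM arrays within each line and number. It read 9.65 and 8.95 in Stat3 WT cells without OSM and 8.80 and 8.75 with OSM, and 8.88 and 9.31 in Stat3 KO cells without OSM and 8.30 and 8.95 with OSM. The Stat3 KO groups overlapped and the Stat3 WT groups did not, with a narrow gap (8.95 against 8.80). By mean, the untreated groups stood highest (9.30 ± 0.50 in Stat3 WT cells and 9.10 ± 0.31 in Stat3 KO cells, which overlapped), above Stat3 WT (8.77 ± 0.03) and Stat3 KO (8.63 ± 0.46) with OSM, which overlapped too. The OSM difference was -0.53 ± 0.41 in Stat3 WT cells (interval -1.52 to 0.46, -0.86 and -0.20 within the numbers) and -0.47 ± 0.41 in Stat3 KO cells (-1.46 to 0.52, -0.58 and -0.37). Neither passed (limma adjusted p 1 in both), and the interaction was 0.06 ± 0.58. Between the lines the difference turned sign between the numbers, from -0.78 to 0.37 untreated and from -0.49 to 0.20 with OSM.

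Counted by sign, 2 of the 5 genes (Cebpb and Cebpd) were higher within both numbers with OSM in Stat3 WT cells and 3 were lower, against 26.4% and 40.2% of all probe sets. In Stat3 KO cells 4 were higher and Ddit3 was lower, against 33.9% and 31.4%. Between the untreated lines 3 (Cebpa, Cebpb and Cebpd) were lower in Stat3 KO cells within both numbers and 0 were higher, against 33.7% and 20.9%. With OSM, Cebpb and Cebpd were lower in Stat3 KO cells and Cebpa and Cebpg higher, against 27.4% and 29.2%. Agreement in sign was thus common among all probe sets.

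Partners and regulators of C/EBP proteins were taken from a list of 26 genes, of which 16 were on the array and 15 were tested. None passed with or without the block. The median OSM difference was -0.09 in Stat3 WT cells, with 5 of 15 above 0, and 0.59 in Stat3 KO cells, with 11 of 15 above 0. Over all 6756 probe sets the medians were -0.04 and 0.02, with 2960 and 3528 above 0. Within the numbers the list's median was 0.05 and -0.09 in Stat3 WT cells and 0.34 and 0.24 in Stat3 KO cells.

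The largest OSM difference of that list in either line was that of Fosl1. Fosl1, a Fos family partner of Jun proteins, read 6.71 and 6.31 in Stat3 WT cells without OSM, 10.16 and 9.07 with OSM, 6.53 and 6.72 in Stat3 KO cells without OSM, and 11.01 and 10.52 with OSM. It was 3.10 ± 0.46 higher with OSM in the Stat3 WT line and 4.14 ± 0.46 higher in the Stat3 KO line, without overlap (limma adjusted p 0.64 and 0.236, or 0.139 and 0.0508 with the block). Fos differed by 2.99 ± 3.60 in Stat3 KO cells (2.97 and 3.01 within the numbers) and by 0.10 ± 3.60 in Stat3 WT cells, where it read 2.70 and 7.95 untreated and 3.09 and 7.75 with OSM. The 02 arrays of Stat3 WT cells thus lay under the log2 value of 5 used as a filter and those of 03 above it, and with the block the standard error was 0.76. In Stat3 KO cells the 02 arrays read 2.70 untreated, under that value, and 5.67 with OSM. With values under 5 set to 5, the difference of Fos in Stat3 KO cells was 1.84. Junb, a Jun family member, was 1.98 ± 0.66 higher in Stat3 WT cells and 1.09 ± 0.66 higher in Stat3 KO cells (limma adjusted p 1 in both).

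Atf3, a stress-inducible factor that pairs with C/EBP proteins, differed by 1.35 ± 1.41 with OSM in Stat3 WT cells and 1.85 ± 1.41 in Stat3 KO cells, and it was higher within both numbers in each line. Its probe set name carries the suffix for probes shared within a gene family, and that of Junb a suffix for relaxed probe choice, so cross-hybridisation was not tested. Atf4, the amino acid response factor upstream of Ddit3, differed by -0.02 ± 0.49 and -0.17 ± 0.49. The Ddit3 target Trib3 differed by -0.09 ± 1.03 (-1.18 and 1.01 within the numbers) and -0.37 ± 1.03, and the stress cofactor Nupr1 by 0.28 ± 0.38 and -0.64 ± 0.38. Trib3 passed the filter only through the 02 arrays of Stat3 WT cells, at 6.81 untreated and 5.63 with OSM. It is part of the medians and counts of the partner list and of the stress list below.

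**Figure D4:**
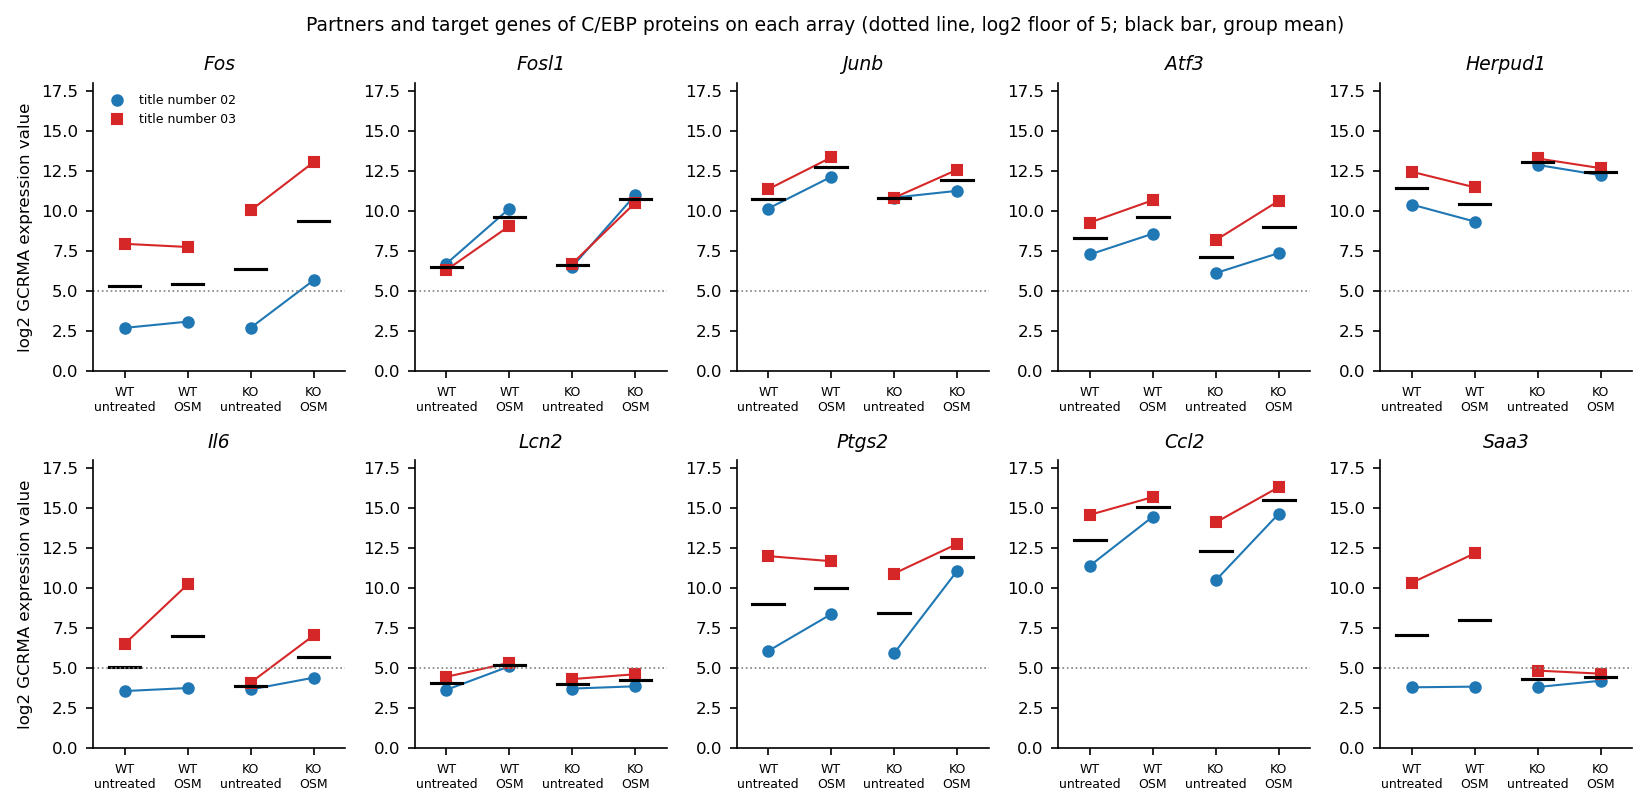
Log2 GCRMA expression value (y axis) of 5 partners or stress genes (top) and 5 C/EBP target genes of inflammation (bottom) on the 8 arrays; circles are title number 02, squares 03, lines join untreated and OSM arrays of 1 line and number, black bars are group means and the dotted line is the floor of 5. Fosl1 was higher with OSM on both numbers of both lines. In Stat3 WT cells Fos, Il6, Saa3, Ptgs2, Atf3, Herpud1 and, slightly, Ccl2 differ by number more than by OSM.

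Target genes of C/EBP factors in inflammation and the acute phase made a list of 25, with 23 on the array and 18 tested. None passed, with or without the block. The median OSM difference was 0.65 in Stat3 WT cells (13 of 18 above 0, 12 higher within both numbers) and 0.30 in Stat3 KO cells (14 above 0, 9 within both). Over all 6756 probe sets the medians were -0.04 and 0.02, with 2960 and 3528 above 0. Higher within both numbers were 26.4% of all probe sets in Stat3 WT cells and 33.9% in Stat3 KO cells. Lcn2 and Saa3, which passed the filter only through Stat3 WT arrays, are part of the list's medians and counts. The OSM medians and counts are therefore a description, from which no difference between the lines is read. Medians without these genes are not given, and the list was chosen with earlier results of these data known. Between the untreated lines the list's median was -0.05. Lcn2, a secreted siderophore binder that is a target of Cebpb and Cebpd, read 3.65 and 4.47 in Stat3 WT cells without OSM and 5.12 and 5.34 with OSM. In Stat3 KO cells it read 3.73 and 4.33 untreated and 3.88 and 4.63 with OSM, so that it reached a log2 value of 5 on the OSM arrays of Stat3 WT cells alone. Lcn2 thus passed the filter only through the group in which it was highest, and its OSM differences, 1.17 for Stat3 WT cells and 0.22 for Stat3 KO cells, are given as a description. With values under 5 set to 5 they were 0.23 and 0.

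The chemokine gene Ccl2 was 2.09 ± 1.51 higher with OSM in Stat3 WT cells (3.07 and 1.11 within the numbers) and 3.18 ± 1.51 higher in Stat3 KO cells (4.16 and 2.20). Il6, a gene bound by Cebpb, read 3.58 and 6.53 in Stat3 WT cells without OSM and 3.77 and 10.24 with OSM. In Stat3 KO cells it read 3.68 and 4.11 untreated and 4.41 and 7.05 with OSM, so the difference in both lines came mainly from the 03 arrays (3.71 and 2.95 there against 0.19 and 0.73). Ptgs2, the inducible prostaglandin synthase, differed by 2.30 and -0.32 within the numbers in Stat3 WT cells and by 5.14 and 1.85 in Stat3 KO cells. The acute-phase gene Saa3 read 10.34 and 12.18 on the 03 arrays of Stat3 WT cells, without and with OSM, and at most 4.85 on the other 6, so it passed the filter through that pair of arrays. Ptx3, an acute-phase pattern recognition protein, differed by 0.75 ± 1.50 and 0.68 ± 1.50. Socs3, the feedback inhibitor of gp130 signalling used as a reference for OSM, differed by 4.70 and 5.08 within the numbers in Stat3 WT cells but by 0.81 and 6.61 in Stat3 KO cells. Limma adjusted p-values were 1 for OSM in either line for Ccl2, Il6, Ptgs2, Saa3, Ptx3 and Socs3.

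The stress response around Ddit3 and Atf4 made a list of 38 genes, with 33 on the array and 28 tested, and none passed with or without the block. The median OSM difference was -0.01 in Stat3 WT cells (12 of 28 above 0) and 0.12 in Stat3 KO cells (15 of 28), next to -0.04 and 0.02 over all probe sets. Of all 6756 probe sets, 2960 and 3528 lay above 0. Herpud1, a gene of endoplasmic reticulum protein degradation, was like Ddit3 lower on each OSM array than on its untreated partner, by -1.06 and -0.97 in Stat3 WT cells and -0.64 and -0.61 in Stat3 KO cells. Its mean differences were -1.02 ± 0.89 and -0.63 ± 0.89. Of the 28 genes, 8 and 11 were lower within both numbers in these lines, against 40.2% and 31.4% of all probe sets. The chaperone gene Hspa5 differed by -0.08 ± 0.59 and 0.53 ± 0.59, the stress factor Xbp1 by -0.03 ± 0.72 and 0.29 ± 0.72, and the asparagine synthetase gene Asns by 0.32 ± 0.68 and -0.44 ± 0.68. Ddit4, an inhibitor of mTOR signalling, differed by 0.99 ± 0.55 in Stat3 WT cells and 0.12 ± 0.55 in Stat3 KO cells. Ppp1r15a, which encodes a phosphatase subunit that reverses the stress block on translation, did not reach a log2 value of 5 on any array.

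The adipocyte programme, in which Cebpb and Cebpd stand ahead of Cebpa and Pparg, was mostly under the filter, with 5 of 13 genes on the array tested and none passing. Pparg lay at 2.51 to 4.28 and the lipid carrier gene Fabp4 at 3.83 to 4.86 on the 8 arrays. Lpl, the lipoprotein lipase gene, differed by -1.02 ± 1.63 with OSM in Stat3 WT cells and by -0.06 ± 1.63 in Stat3 KO cells. The list's median OSM difference was 0.01 and -0.09.

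Genes with the most similar pattern over the 8 arrays were ranked by Pearson r after the mean of each title number was subtracted, over 5194 other genes, as a description. For Cebpd they were Dph5 (r = 0.986), Cmtm6 (0.979), Tle3 (0.9764), Spryd4 (0.9728) and Usp24 (0.9605). Their OSM differences in Stat3 WT cells, from 0.35 for Usp24 to 1.23 for Dph5, were all under the 3.12 of Cebpd. For Cebpb they were Abce1 (0.9866), Hspa14 (0.9807), Nfe2l2 (0.9762), Ier3 (0.9736) and B3galt6 (0.9593), and Ier3 had the largest OSM differences of these, 1.91 in Stat3 WT cells and 1.61 in Stat3 KO cells. For Ddit3 they were Brca2 (0.9827), Mbd4 (0.9765), Banp (0.9751), Smad6 (0.9668) and Polr2a (0.953). For Cebpa they were Ensa (0.9279), Gmppb (0.9216), Lgalsl (0.9157), Zw10 (0.9071) and Prxl2a (0.9036). For Cebpg they were Ifit2 (0.9737), Rsad2 (0.9698), Mx1 (0.9666), Ttc39b (0.9608) and Cmpk2 (0.9585). Of these, Rsad2, Mx1 and Cmpk2 reached a log2 value of 5 only on the 03 arrays of Stat3 KO cells. Rsad2 read 8.35 there untreated and 12.31 with OSM, against 3.42 and 3.56 on the 02 arrays of that line. Ifit2 read 10.52 and 12.39 on the 03 arrays of Stat3 KO cells and 8.96 and 9.48 on those of 02.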

How the data were processed

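The authors hybridised biotin-labelled cRNA of total RNA from 8 samples to Affymetrix arrays, per the labels. The authors deposited 1 log2 value for each probe set and array, made with GCRMA and affy per the submitters' processing notes, which give no versions. GCRMA draws dim probe sets to low, similar values, which can enlarge the difference of a gene dim in 1 group. The table held 12488 probe sets, 66 of them controls that were left out. In the platform annotation 10833 had 1 gene symbol, 396 several and 1193 none, and gene IDs of 10817 matched RefSeq GRCm38.p6.

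The tests were run in R 4.3.3 with limma 3.58.1 (lmFit, eBayes with trend, two-sided) with 4 group means on all 8 arrays and 4 residual degrees of freedom. Probe sets with a log2 value of at least 5 on at least 2 arrays were kept, and Benjamini-Hochberg adjustment ran over the 6756 kept. Lists used 1 probe set per gene, that with the highest mean. The code of the fit was tried on simulated data. There the fit without the block met no difference between the title numbers. The trial therefore does not cover the reported fit on data with such a difference. Named were the 5 members, Stat3, the 5 genes most alike in pattern, called list members (there were none) and a set of list genes given whatever their result. Members and lists were chosen with earlier results of these data known.

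Differences between numbers 03 and 02 correlated at 0.589 to 0.9106 between the groups, and on this basis, not from the labels, arrays of 1 number were taken as paired. The number is left out of the reported fit. As a replicate block it left 3 residual degrees of freedom and reduced the median standard error for OSM in Stat3 WT cells from 0.49 to 0.28. Other settings were no filter, a filter at log2 7, no trend, robust estimation, only the groups compared, quantile normalization, median centring, a floor at 5, and leaving out each array.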

Additional observations from a re-analysis of the deposited data

Results flagged for a closer look

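Cebpa was lower with OSM in Stat3 WT cells and higher in Stat3 KO cells within both title numbers, with an interaction of 0.76 log2 units (Stat3 KO minus Stat3 WT). Cebpg showed the same opposition of signs, with an interaction of 0.44. Of all probe sets, 15.5% had an interaction at least as large as that of Cebpa, and 37% one at least as large as that of Cebpg. Leaving out 1 array could turn the sign of the Cebpg OSM difference in either line. Neither interaction passed limma's test (adjusted p 1 for both, and 0.913 and 0.921 with the replicate block), so the opposite directions are given as measured values only.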

How the results depend on the processing

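No C/EBP gene passed under any setting run, though Cebpa was not tested with the filter at log2 7. Each member has 1 probe set, so no other probe set of a member could be tried. The directions of Cebpd and Cebpa held in all comparisons under every setting, and those of Cebpb under all but leaving out an array. The interaction of Ddit3 turned to -0.071 with quantile normalization, -0.054 with median centring and -0.16 within number 03, its difference between the lines turned within 03 (0.37 untreated, 0.20 with OSM), and that of Cebpg between the untreated lines turned to -0.052 within 02. The cause was not tested. Of the list genes for OSM in Stat3 WT cells, Atf4 turned to 0.046 and Xbp1 to 0.034 with median centring, Fos to -0.10 with values under 5 set to 5 and Trib3 to 0.0008 with quantile normalization. With values under 5 set to 5, Saa3, Lcn2 and Trib3 in Stat3 KO cells became 0, as all 4 arrays lie under it, and Lcn2 for OSM in Stat3 WT cells became 0.23, Trib3 there -0.59, and Il6 and Fos in Stat3 KO cells 1.03 and 1.84.

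The count of probe sets called was 0 for OSM in Stat3 WT cells and 1 with the replicate block. For OSM in Stat3 KO cells it was 0, 2 with the block and 1 with values under 5 set to 5, and leaving out an array gave 0 to 1. Between the untreated lines leaving out an array gave 0 to 1. Between the lines with OSM it was 1, 7 with the block, and 0 without the trend, with robust estimation, with only the groups compared, with either normalization and with the floor, and leaving out an array gave 0 to 2. The replicate block changed no call of a C/EBP gene.

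Leaving out 1 array in turn turned these differences of C/EBP genes. Each range is taken over the fits with and without the replicate block together. For OSM in Stat3 WT cells the range was -0.36 to 0.027 for Cebpg. For OSM in Stat3 KO cells the ranges were -0.0099 to 1.49 for Cebpb and -0.26 to 0.81 for Cebpg. For the interaction they were -0.85 to 0.65 for Cebpb, -0.10 to 0.98 for Cebpg and -0.47 to 0.58 for Ddit3. Between the untreated lines they were -1.18 to 0.32 for Cebpb, -0.23 to 0.55 for Cebpg and -0.73 to 0.32 for Ddit3. Between the lines with OSM the range was -0.52 to 0.23 for Ddit3. Some of these turned only without the block. With it, Cebpb kept its sign for OSM in Stat3 KO cells (0.36 to 1.13) and between the untreated lines (-0.81 to -0.04). The interaction of Cebpg kept its sign with the block as well (0.15 to 0.73). Without a change of sign, the difference of Cebpd ranged from 2.21 to 4.03 for OSM in Stat3 WT cells, 1.27 to 2.49 for OSM in Stat3 KO cells, -2.15 to -0.33 for the interaction, -2.59 to -0.77 between the untreated lines and -3.53 to -2.31 between the lines with OSM, and that of Cebpb from 0.23 to 1.44 for OSM in Stat3 WT cells. Of the list genes, the ranges for OSM in Stat3 WT cells were -0.62 to 1.26 for Asns, -0.59 to 0.56 for Atf4, -2.53 to 2.72 for Fos, -2.09 to 0.053 for Herpud1, -0.52 to 0.36 for Hspa5, -1.29 to 5.19 for Il6, -2.59 to 0.56 for Lpl, -0.08 to 0.63 for Nupr1, -1.97 to 3.95 for Ptgs2, -0.74 to 2.24 for Ptx3, -3.22 to 5.10 for Saa3, -1.69 to 1.51 for Trib3 and -0.77 to 0.71 for Xbp1. For OSM in Stat3 KO cells they were -1.05 to 0.17 for Asns, -0.50 to 0.17 for Atf4, -0.45 to 0.68 for Ddit4, -0.70 to 6.68 for Fos, -0.22 to 1.28 for Hspa5, -0.15 to 0.60 for Lcn2, -1.73 to 1.61 for Lpl, -1.13 to 2.50 for Ptx3, -2.32 to 2.53 for Saa3, -1.34 to 0.60 for Trib3 and -0.39 to 0.97 for Xbp1. For some of these genes the sign turned in only 1 of the fits. With the block it held for Herpud1, Hspa5, Lpl and Nupr1 in Stat3 WT cells. In Stat3 KO cells it held with the block for Fos, Hspa5 and Lcn2. Without the block it held for Ptx3 in Stat3 WT cells and for Asns and Trib3 in Stat3 KO cells. Where 1 array of a group remained, it is assumed to vary like the other groups.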
